A study of Mus musculus with 6 samples.

Results

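The genes described here encode the constitutive proteasome, the protease that degrades ubiquitin-tagged proteins in every cell, together with its regulators and assembly factors. They were taken as every gene with a probe set annotated to 1 symbol beginning Psma, Psmb, Psmc, Psmd, Psme, Psmf or Psmg, leaving out the interferon-inducible genes Psmb8, Psmb9, Psmb10, Psme1 and Psme2. This gave 44 of the 12394 genes with such a probe set, on 81 probe sets. For 23 of them there was 1 probe set, and for the other 21 the brightest of several was used. A gene was tested if its signal exceeded the median of its array on at least 1 array, which 42 of the 44 did, within 7510 genes in all. The other 2 were Psma8, the testis alpha subunit, with signals of 1.43 to 35.7, and Psmc3ip, with 13.8 to 42.9, on arrays with medians of 65.2 to 117.0. Psmc3ip and Psme3ip1 carry the prefix because their products bind a proteasome protein, and they are not subunits. Leaving both out changed none of limma's counts of calls over the members.

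RNA came from bone marrow-derived macrophages of C57BL/6J mice that lacked IκBβ, an NF-κB inhibitor (KO), or were wild type (WT). The macrophages were grown for 7 days in medium conditioned by L929 cells after adherent marrow cells had been removed, and then received LPS, the bacterial lipopolysaccharide that Toll-like receptor 4 senses, at 1 µg/ml for 0, 1 or 5 h. Each genotype and time had 1 Mouse Genome 430A 2.0 array, 6 in all, and the labels do not say whether arrays share an animal. Values are MAS5 signals, the brightness that the array software gives a probe set on a linear scale. Nfkbib, the gene of IκBβ, read 30.5, 136 and 56.1 at 0, 1 and 5 h on the KO arrays, against 477, 3330 and 5007 on the WT arrays. Xist, the RNA of the inactive X chromosome, read 2149 to 5634 on the KO arrays and 52.1 to 80.4 on the WT arrays. The KO cells thus carried female and the WT cells male RNA, and genotype and sex cannot be told apart. All 8 macrophage markers were above the median of every array. In contrast, 0 of 5 T and NK cell markers and 1 of 3 measured B cell markers exceeded it on any array. On the KO 5 h array alone, 1 of 4 fibroblast and stroma markers (Dcn, 99.1) exceeded the median. On every array 1 of 4 dendritic cell markers (H2-Ab1, 2757 to 4346.5) exceeded it. Of 4 measured neutrophil markers, 2 exceeded it on some array, and their summed signal was 648 to 1292 at 5 h against 208 to 223 at 0 h, which came mainly from S100a8. That gene read 1135 at 5 h and 81.7 at 0 h on the KO arrays. The part of these markers in the results was not tested.

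The proteasome has a barrel-shaped 20S core and a 19S cap. In the core, outer rings of alpha subunits gate the entry of substrates, and inner rings of beta subunits hold the active sites of PSMB5, PSMB6 and PSMB7. In the cap, a ring of ATPases unfolds the substrate, and non-ATPase subunits bind ubiquitin chains and remove them. Dedicated chaperones build these rings and leave the finished particle. In macrophages the proteasome also degrades the inhibitors of NF-κB after LPS and generates peptides for antigen presentation, and interferons induce replacement beta subunits that form the immunoproteasome.

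After 5 h of LPS the proteasome genes moved both ways, with rises led by alpha subunits and Psmd10 and falls led by the assembly chaperones Psmg1 and Psmg2. Their median log2 change was 0.05 in the deposited signals, against −0.57 for all 7510 genes, and it was 0.81 against 0.19 after array medians were set equal. As deposited, 34 of the 42 lay above the all-gene median. Tested across both genotypes with limma, the change passed for 12 members that were higher, where 19.5% of all genes were, and for 14 that were lower, where 54.0% of all genes were. The other 16 did not pass an adjusted p of 0.05. The members called higher were 28.6% of the 42 and those called lower 33.3%. The excess of higher calls over the background depended on the fit, while the share called lower was below the background in each fit named here. Without the WT 0 h array 6 members were higher and 6 lower, or 14.3% each, where 14.9% and 44.0% of all genes were. Without the KO 0 h array 7 were higher and 7 lower, or 16.7% each, where 14.9% and 40.8% of all genes were. Without the WT 5 h array 9 were lower, or 21.4%, where 50.7% of all genes were. After quantile normalization 11 were higher, or 26.2%, where 26.3% of all genes were, and 11 were lower, where 40.8% of all genes were. Whichever 1 array was left out, Psma2 to Psma6 and Psmd10 were called higher, and Psmc1, Psmd1, Psmd5, Psmg1 and Psmg2 lower; no other member was called in every such fit. In a bulk sample, fewer cells of a type and less RNA per cell cannot be told apart.

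By role in the particle, the calls in the deposited signals were unevenly spread, where 19.5% of all genes were higher and 54.0% lower. The alpha ring gave 5 higher and 1 lower of 7 members tested (median 0.71), and the beta ring 3 higher and 2 lower of 7 (0.11). Of the 6 ATPases, 0 were higher and 3 lower (−0.28), while the 11 non-ATPase subunits of the cap gave 3 and 2 (0.12). Of the 7 assembly chaperones, 1 was higher and 6 lower (−0.70). The activators Psme3 and Psme4 and the inhibitor Psmf1 gave no call as deposited. All 3 were called higher after array medians were set equal, at 0.98, 1.03 and 0.44. Of these, only Psme3 was called after quantile normalization, higher at 0.63 (adjusted p = 0.0064). The other probe set of Psme3 that passed the filter changed by −0.03 as deposited, against 0.22 on the one used. After array medians were set equal, the counts of higher and lower calls were 6 and 0 in the alpha ring, 5 and 0 in the beta ring, 3 and 0 among the ATPases, 10 and 0 among the non-ATPase subunits and 1 and 1 among the chaperones. After quantile normalization they were 5 and 1, 0 and 2, 1 and 3, 3 and 2, and 1 and 3 in the same order. Of all genes, 38.9% were higher and 27.2% lower with equal medians, and 26.3% and 40.8% after quantile normalization. These groups are small, and their differences from each other were not tested.

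**Figure D1:**
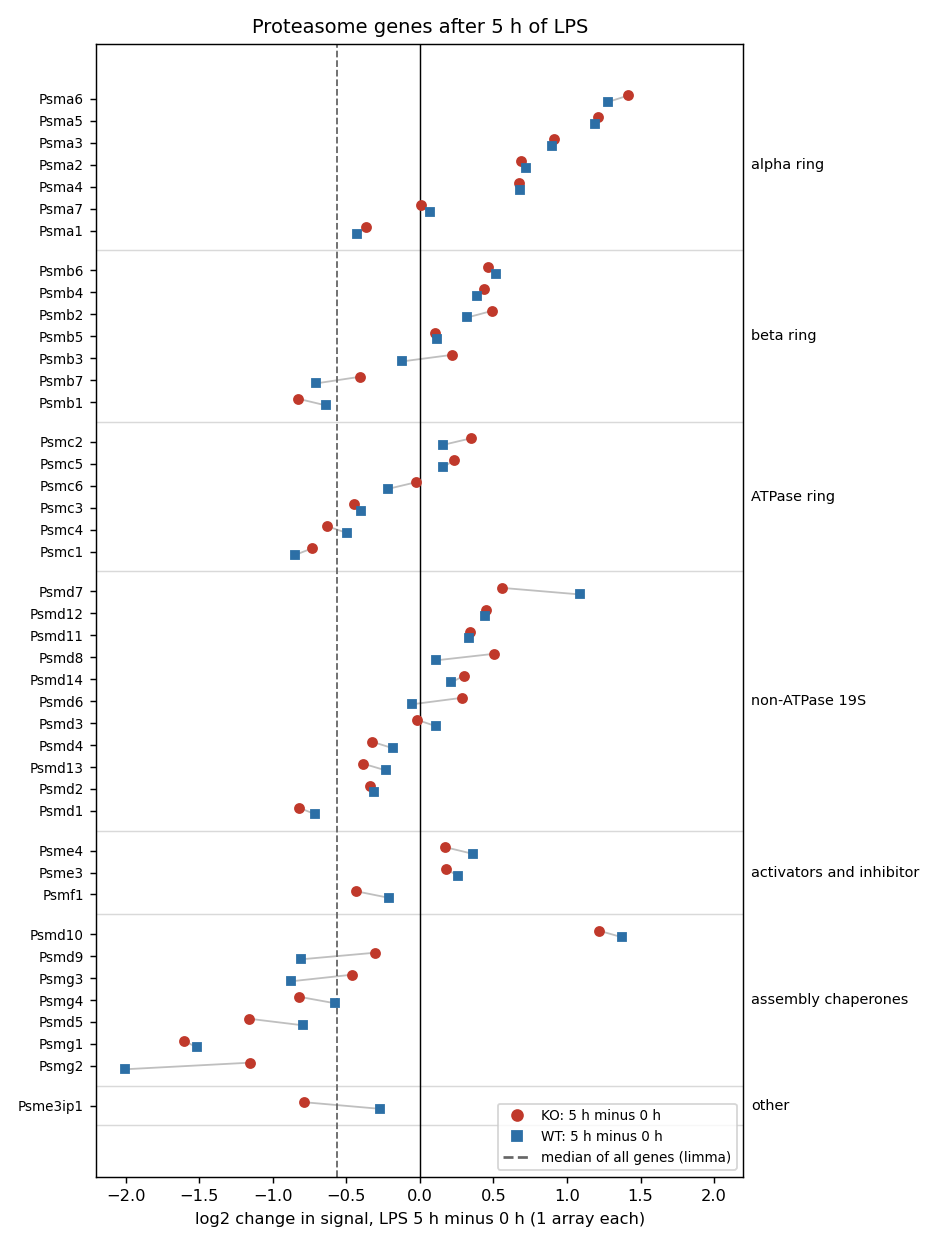
Log2 change in signal from 0 h to 5 h of LPS for the 42 proteasome genes tested, by role, with a red circle for the KO arrays and a blue square for the WT arrays, 1 array per genotype and time. The dashed line is the median of all genes in limma, −0.57. Psma2 to Psma6 and Psmd10 lie to the right of 0 in both genotypes, and Psmg1 in both genotypes and Psmg2 on WT lie farthest to the left.

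Psma6, an alpha subunit, had the largest rise. It read 4261, 4430 and 11381 at 0, 1 and 5 h on the KO arrays, against 4563, 4649 and 11049 on the WT arrays. The 5 h signals stood far above both earlier times in either genotype. Limma put the 5 h change at 1.35 (log2, SE 0.11), or 2.54-fold (adjusted p = 0.00089). Psma5, the alpha subunit next to it in the order of change, read 3000, 2386 and 6947 on the KO arrays and 3074, 2728 and 7013 on the WT arrays. Its change was 1.201 (SE 0.11, adjusted p = 0.0013). Psma3 read 3635, 3014 and 6823 on the KO arrays and 3626, 3281 and 6748 on the WT arrays, a change of 0.90 (SE 0.11, adjusted p = 0.0025). For both genes the 1 h signal was the lowest of the 3 times in each genotype, and the rise came between 1 h and 5 h.

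Psma2 rose by 0.71 (adjusted p = 0.0046) and Psma4 by 0.68 (adjusted p = 0.0047). Psma2 read 3356, 3311 and 5413 on the KO arrays, against 3881, 3612 and 6411 on the WT arrays, with the KO signal below the WT signal at each time. Psma4 read 2713, 2399 and 4335 on the KO arrays and 2658, 2432 and 4251 on the WT arrays. The remaining alpha subunits differed from these. Psma7 did not pass as deposited (0.04, adjusted p = 0.755), with 1841, 1572 and 1852 on the KO arrays and 1961, 1818 and 2056 on the WT arrays. It was called higher after array medians were set equal, at 0.80 (adjusted p = 0.0039). Psma1 fell by 0.40 (adjusted p = 0.025), but its change was 0.37 and did not pass after array medians were set equal.

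Among the beta subunits the catalytic genes went different ways in the deposited signals. Psmb6, which carries the caspase-like site, rose by 0.49 (SE 0.10, adjusted p = 0.0125), with 2428, 2635 and 3344 on the KO arrays and 2666, 2901 and 3816 on the WT arrays. Psmb5, the chymotrypsin-like subunit, did not pass, at 0.11 (adjusted p = 0.377), with 2114, 1899 and 2272 on the KO arrays and 2213, 1910 and 2394 on the WT arrays. Both Psmb6 and Psmb5 were called higher after array medians were set equal, at 1.25 and 0.87 (adjusted p = 0.00086 and 0.0033). After quantile normalization Psmb5 stood at −0.04 without a call. Psmb7, the trypsin-like subunit, fell by 0.56 (adjusted p = 0.017), but stood at 0.20 and did not pass after array medians were set equal. It read 5107, 5101 and 3842 on the KO arrays and 5457, 5298 and 3341 on the WT arrays, so that the fall lay after 1 h in both genotypes. Of the structural beta subunits, Psmb4 and Psmb2 each rose by 0.41 (adjusted p = 0.021 and 0.027). After quantile normalization none of the 3 beta rises passed, with Psmb6 at 0.28, Psmb2 at 0.31 and Psmb4 at 0.12 (adjusted p = 0.062, 0.062 and 0.329). Psmb3 did not pass as deposited, and its single arrays went opposite ways, 0.22 on KO and −0.12 on WT. It was called higher after array medians were set equal, at 0.81 (adjusted p = 0.018). Psmb1 fell by 0.73 (adjusted p = 0.0084), with a change of 0.03 after array medians were set equal.

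The inducible counterparts rose as a group. Psmb8, Psmb9 and Psmb10, which take the places of Psmb5, Psmb6 and Psmb7 in the immunoproteasome, rose by 1.48, 1.36 and 1.63 (adjusted p = 0.0011, 0.0015 and 0.00064). Psmb8 read 2947, 2509 and 7430 on the KO arrays, against 2671, 2290 and 8222 on the WT arrays. Psmb10 read 2262, 2189 and 6541 on the KO arrays and 2157, 2230 and 7137 on the WT arrays. Psme1, a subunit of the interferon-induced activator ring, rose by 1.16 (adjusted p = 0.0017), and all 4 were called higher on each of the 3 scalings of the arrays. Psme2 shares its probe set with another symbol and was not analysed here. The median of these 4 genes was 1.42, against 0.41 for the 14 core genes, and the difference was not tested. As deposited, Psma6 and Psma5 moved by as much as Psmb9 and Psme1, while Psmb5 did not pass the test.

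In the cap, no ATPase was called higher at 5 h in the deposited signals. Psmc1 fell by 0.79 (SE 0.10, adjusted p = 0.0033), with 1354, 1236 and 815 at 0, 1 and 5 h on the KO arrays and 1371, 1246 and 762 on the WT arrays, but stood at −0.03 without a call after array medians were set equal. Psmc4 fell by 0.56 (adjusted p = 0.013) and Psmc3 by 0.43 (adjusted p = 0.020), and both were above 0 without a call after array medians were set equal. Psmc2 (0.25), Psmc5 (0.20) and Psmc6 (−0.12) did not pass as deposited, but were called higher after array medians were set equal, at 1.01, 0.96 and 0.64, and Psmc5 also after quantile normalization, at 0.36 (adjusted p = 0.042). Among the non-ATPase subunits, Psmd7, which pairs with the deubiquitinase Psmd14 in the lid, rose by 0.82 (SE 0.17, adjusted p = 0.013). It read 816, 764 and 1201 on the KO arrays and 675, 681 and 1435 on the WT arrays, and its single-array changes of 0.56 on KO and 1.09 on WT were the farthest apart in this group. Psmd14 itself did not pass as deposited (0.26, adjusted p = 0.091), but was called higher after array medians were set equal, at 1.02 (adjusted p = 0.0021). The lid subunits Psmd12 and Psmd11 rose by 0.44 and 0.34 (adjusted p = 0.018 and 0.040). The call of Psmd11 was lost without any 1 of the 6 arrays and after quantile normalization (0.10, adjusted p = 0.401), and that of Psmd7 without the WT 0 h array (0.66, adjusted p = 0.078). The large scaffold subunits of the base fell, Psmd1 by 0.77 (adjusted p = 0.0041) and Psmd2 by 0.33 (adjusted p = 0.045), but after array medians were set equal Psmd1 stood at −0.01 and Psmd2 was called higher at 0.44. Psmd1 read 1800, 1635 and 1016 on the KO arrays and 1896, 1640 and 1157 on the WT arrays.

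The assembly chaperones held the largest falls. Psmg1 and Psmg2 encode PAC1 and PAC2, the pair on which the alpha ring is built. Psmg1 read 400.1, 336 and 132 on the KO arrays, against 509, 409 and 177 on the WT arrays, so that the 5 h signal was the lowest in each genotype. Its change was −1.56 (SE 0.11), or 2.95-fold lower (adjusted p = 0.00065). Psmg2 read 461, 298 and 207 on the KO arrays and 511, 360 and 128 on the WT arrays, a change of −1.58 with the widest error of any member (SE 0.28, adjusted p = 0.0078), and it missed the threshold at −0.82 (adjusted p = 0.051) after array medians were set equal. Psmg3 and Psmg4, which encode the companion pair PAC3 and PAC4, fell by 0.67 and 0.70 (adjusted p = 0.014 and 0.0078), but stood at 0.09 and 0.06 without a call after array medians were set equal. The chaperones of the ATPase ring were split. Psmd10, or gankyrin, rose by 1.30 (SE 0.11, adjusted p = 0.0010), with 655, 779 and 1525 on the KO arrays and 635, 779 and 1651 on the WT arrays. Psmd5 fell by 0.98 (adjusted p = 0.0051), with 557, 450 and 248 on the KO arrays and 505, 546 and 291 on the WT arrays, and stood at −0.22 without a call (adjusted p = 0.228) after array medians were set equal. Psmd9 fell by 0.56 (adjusted p = 0.034), but stood at 0.20 after array medians were set equal and at 0.0093 after quantile normalization.

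**Figure D2:**
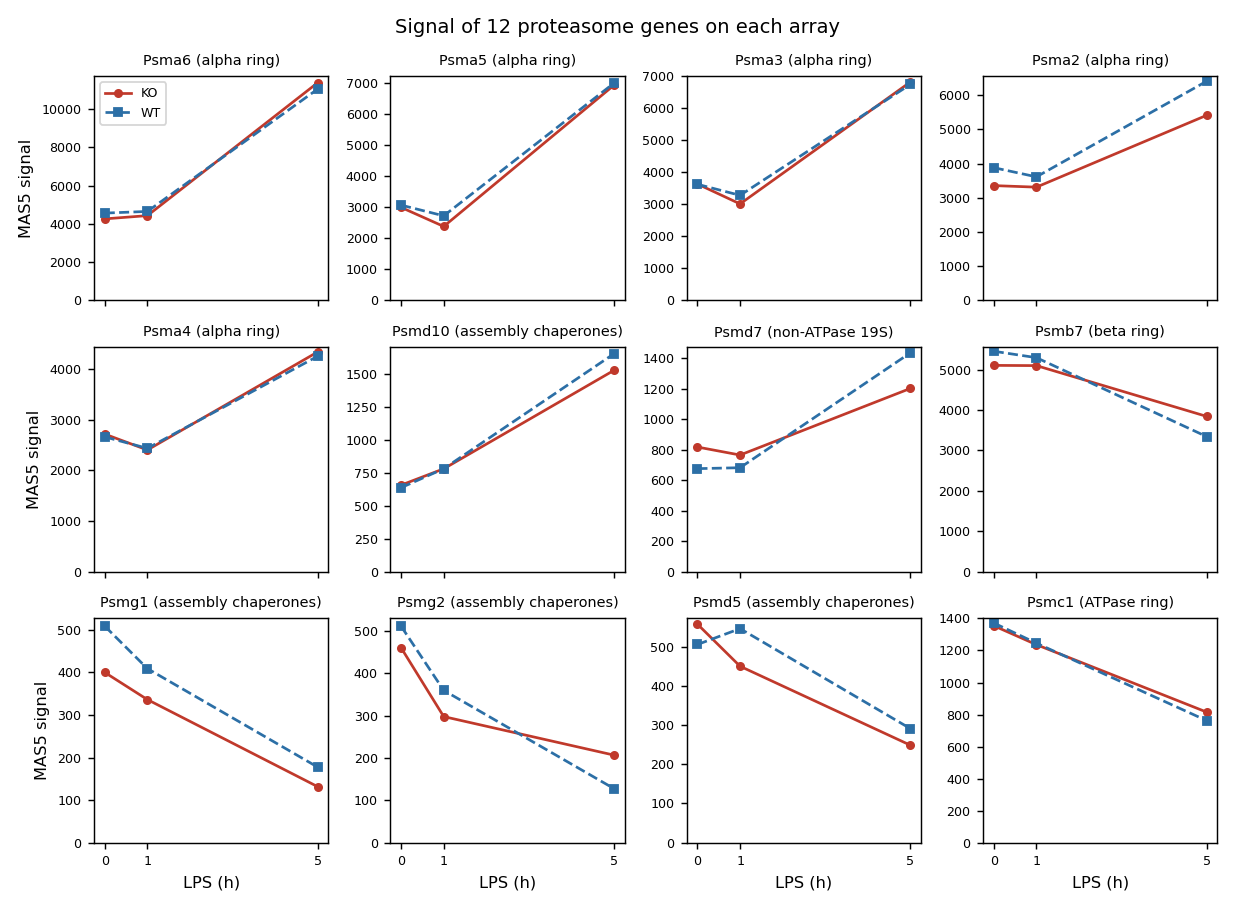
MAS5 signal (linear scale, from 0) against hours in LPS for 12 proteasome genes, with a solid red line for the 3 KO arrays and a dashed blue line for the 3 WT arrays. The alpha genes and Psmd10 climb between 1 h and 5 h, for instance Psma6 to 11381 on KO and 11049 on WT, while Psmg1 ends at 132 on KO and 177 on WT and Psmg2 at 207 on KO and 128 on WT.

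How far these directions hold depends on the scaling of the arrays. The deposited signals have a common trimmed mean on every array, but the array medians were 117.0, 98.7 and 65.2 at 0, 1 and 5 h on the KO arrays and 113.4, 105.1 and 70.7 on the WT arrays. Setting the medians equal moved the median change of all genes at 5 h to 0.19, and quantile normalization moved it to −0.23. The members then gave 28 higher and 1 lower with equal medians, beside 2923 and 2039 of all genes, and 11 higher and 11 lower with quantile normalization, beside 1977 and 3061. Called higher on all 3 scalings were 8 members, Psma2, Psma3, Psma4, Psma5, Psma6, Psmd7, Psmd10 and Psmd12. Called lower on all 3 was Psmg1 only. Of the 14 members lower as deposited, 11 were lower after quantile normalization too, and 9 were above 0 after array medians were set equal. The members' median stayed above that of all genes in each case, by 0.61 as deposited and by 0.23 after quantile normalization.

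**Figure D3:**
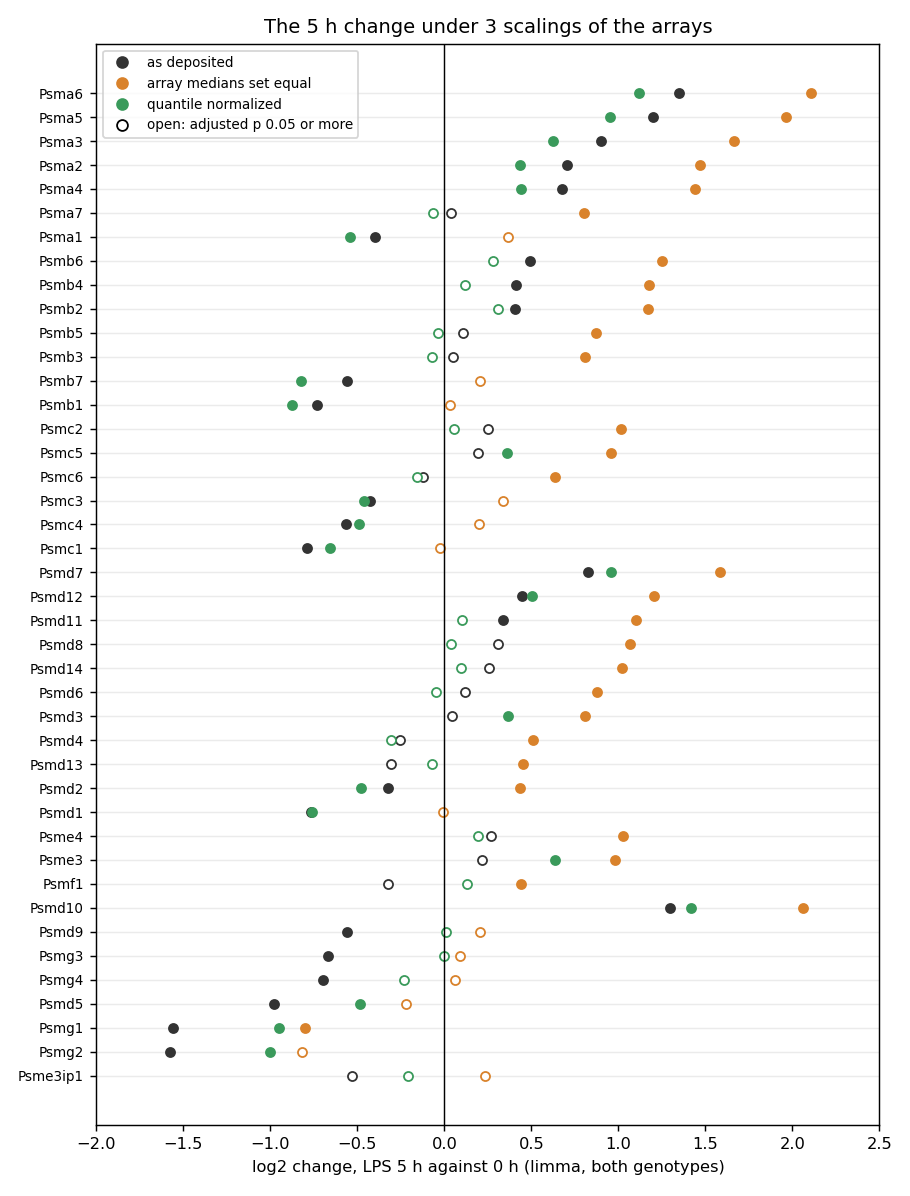
Limma log2 change at 5 h against 0 h for the 42 genes, as deposited (black), with array medians set equal (orange) and after quantile normalization (green). Filled points passed an adjusted p of 0.05. Equal medians shift every gene to the right, and Psmg1 is the only gene filled to the left of 0 in all 3 colours.

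The members are bright genes, and brightness went with the change. Of the 42, 25 were in the brightest of 4 bands of equal size, made from all genes tested by mean signal, where the median change was −0.10 and 34.5% of genes were higher and 40.4% lower. In that band 9 of the 25 members were higher, a share near that of the band, and 6 were lower, and their median was 0.25. The members of the next dimmer band were 9, of which 3 were higher, where 21.1% of its genes were, and 2 lower, where 57.0% were. The 8 members of the band below it were Psmg1 to Psmg4, Psmd5, Psmd9, Psme3 and Psmf1, of which 6 were lower, where 65.5% of the genes of that band were lower. The 6 assembly chaperones that fell were all in that band, where most genes fell. The part of brightness in their falls was not tested.

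Sequences upstream of the start sites were examined for the letters of known elements in the 250 bases before each start, from RefSeq on GRCm38.p6, on both strands. Windows were found for 36 of the 44 genes, 39 windows in all. The antioxidant response element core, which NFE2L1 and NFE2L2 bind at proteasome genes, was searched loosely as TGANNNNGC, with any base at each N. These letters were in 41.0% of the windows and in 35.2% of 32851 windows of all genes. The CCAAT box, bound by NF-Y, was in 35.9% against 33.8%. The interferon-stimulated response element (GAAA, then NN, then GAAA) was in 7.69% against 2.98%, and a κB form (GGG, then NN, then TTTCC) in 2.56% against 1.41%, or 3 windows and 1 window of the 39. Those 3 were of Psmb3, Psmd4 and Psmd9, and the 1 was of Psme3ip1, which is no subunit. Neither element was in the 6 windows of the inducible genes or the 11 of members called higher at 5 h. Of the 10 windows of members called lower, 1 held the interferon element. Among the windows of members called higher at 5 h, 45.5% of 11 held the letters TGANNNNGC, and among those of members called lower 50.0% of 10 did. The windows printed belong to members called in the same direction on all 3 scalings, with the matched letters in capitals, none of which overlap between elements, and with no meaning for factor binding drawn from a match or its absence. Psma5 lies at chr3:108256676-108256925 (plus strand) and has none of the letters searched. Psma3 at chr12:70974373-70974622 (plus strand) has 1 CCAAT box. Psmd10 at chrX:140956712-140956961 (minus strand) has 3 CCAAT boxes, 2 of them on the opposite strand (ATTGG). Psmg1, the member that fell, at chr16:95990961-95991210 (minus strand) has 1 match to TGANNNNGC, which reads TGAATCCGC.
Psma5: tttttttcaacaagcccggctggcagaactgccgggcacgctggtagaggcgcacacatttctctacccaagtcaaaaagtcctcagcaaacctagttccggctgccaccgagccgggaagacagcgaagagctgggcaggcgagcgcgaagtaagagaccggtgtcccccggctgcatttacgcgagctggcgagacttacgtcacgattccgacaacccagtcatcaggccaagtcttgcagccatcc
Psma3: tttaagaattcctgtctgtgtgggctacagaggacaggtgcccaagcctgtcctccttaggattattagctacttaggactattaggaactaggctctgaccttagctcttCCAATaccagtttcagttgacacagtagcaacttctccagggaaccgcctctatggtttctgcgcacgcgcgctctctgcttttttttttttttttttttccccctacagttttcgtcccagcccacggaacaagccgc
Psmd10: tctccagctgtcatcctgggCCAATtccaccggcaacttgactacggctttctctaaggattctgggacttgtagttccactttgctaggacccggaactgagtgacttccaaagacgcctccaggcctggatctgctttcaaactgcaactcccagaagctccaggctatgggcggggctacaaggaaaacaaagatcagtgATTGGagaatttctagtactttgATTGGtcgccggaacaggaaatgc
Psmg1: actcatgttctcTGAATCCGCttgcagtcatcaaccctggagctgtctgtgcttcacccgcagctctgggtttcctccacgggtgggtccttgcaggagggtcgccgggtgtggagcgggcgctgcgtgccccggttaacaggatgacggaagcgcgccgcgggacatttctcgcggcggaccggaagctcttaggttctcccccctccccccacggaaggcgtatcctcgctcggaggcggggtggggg

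At 1 h of LPS a single proteasome gene passed the test. Limma called 0 of 42 members higher, where 5.42% of all genes were higher, and 1 lower, where 5.91% were lower, and 3 members had an unadjusted p under 0.05. The members' median change was −0.15, against −0.18 for all genes. Psmg3 was the member called, at −0.96 (SE 0.14, adjusted p = 0.031). It read 230, 130 and 167 at 0, 1 and 5 h on the KO arrays and 343, 160 and 187 on the WT arrays, and its 1 h signal was the lowest of each genotype. The call was lost without any one of the 0 h or 1 h arrays, where the count was 0. The members next in size were Psmg2 at −0.57 (adjusted p = 0.234) and Psmb1 at −0.44 (adjusted p = 0.111). The highest were Psmd10 at 0.27 (adjusted p = 0.169), Psmd12 at 0.13 and Psmb6 at 0.12, and none of these passed. On single arrays, 0 members were at least 1.5-fold higher on KO and 0 on WT (8.87% and 9.61% of all genes), and 2 and 1 were at least 1.5-fold lower (14.9% and 12.7%).

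Between 1 h and 5 h, 12 members rose, where 18.5% of all genes did, and 6 fell, where 45.4% did. Psma5 had the largest change of this interval at 1.45 (SE 0.11, adjusted p = 0.0012), with Psma6 at 1.30, Psma3 at 1.11 and Psmd10 at 1.03. Psmg1 fell by 1.28 (adjusted p = 0.0014), Psmg2 by 1.01 (adjusted p = 0.034) and Psmd5 by 0.88 (adjusted p = 0.0088). Psmg3 did not pass in this interval (0.29, adjusted p = 0.146). The contrast shares its 5 h arrays with the one above and is no separate support for it. Without the KO 1 h array 6 members were higher and 2 lower, or 14.3% and 4.76%, where 11.7% and 29.8% of all genes were. Without the WT 1 h array 6 were higher and 1 lower, or 14.3% and 2.38%, where 12.2% and 31.4% were. With array medians set equal 27 were higher and 1 lower, or 64.3% and 2.38%, where 36.4% and 24.1% were.

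The question of the study was what loss of IκBβ does to the LPS response, and no proteasome gene passed the test between the genotypes. Limma's test over the 3 times called 0 of 42 members higher in KO, where 0% of all genes were called, and 0 lower, where 0.0133% were, which is the Y-linked gene Eif2s3y. The members' median KO over WT change was 0.00, and 4 of the 42 had an unadjusted p under 0.05. The design gives this test little reach, since Nfkbib itself, at −5.02 (SE 0.53), had an adjusted p of 0.308. Across the members the 95% intervals of the log2 difference reached from −0.67 at the lowest to 0.71 at the highest.

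The lowest unadjusted p belonged to Psmc4, at 0.40 (SE 0.10, adjusted p = 0.547), and it was higher in KO at 3 of 3 times. It read 1675, 1332 and 1083 at 0, 1 and 5 h on the KO arrays, against 1161, 1109 and 822 on the WT arrays. Its other probe set differed by 0.05, 0.11 and 0.05 at these times, so the gap rested on 1 probe set. Psmg4 (−0.40), Psmg1 (−0.35) and Psmg3 (−0.35) were lower in KO at 3 of 3 times, each without an adjusted p under 0.05. Psmg4 read 482, 353 and 272 on the KO arrays and 564, 497 and 378 on the WT arrays. Psmg2 was at 0.09, and the 7 assembly chaperones had a median difference of −0.12, against −0.03 for all genes, with 0 called.

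At single times, 0 members differed by 1.5-fold at 0 h, where 3.06% of all genes were that much higher and 3.05% lower in KO, and 0 at 1 h (3.49% and 5.54%). At 5 h, 1 member was that much higher in KO (5.15%) and 0 were lower (9.24%). That member was Psmg2, at 0.70, with 0.34 on its other probe set. The SD of KO minus WT over the members was 0.17, 0.18 and 0.22 at 0, 1 and 5 h, against 0.35, 0.40 and 0.48 over all genes. These values compare 1 array with 1 array and have no test.

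**Figure D4:**
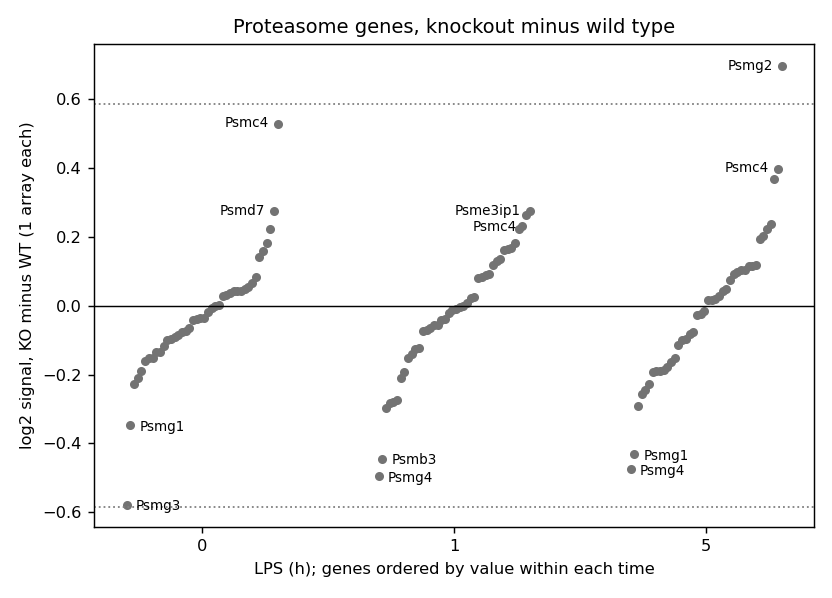
KO minus WT log2 signal of the 42 genes at 0, 1 and 5 h of LPS, 1 array each, ordered by value within each time, with the 2 highest and the 2 lowest named. The dotted lines mark 1.5-fold, and the only point beyond them is Psmg2 at 5 h, at 0.70.

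The LPS change at 5 h was then set side by side in the genotypes. On single arrays 6 members were at least 1.5-fold higher on KO and 7 on WT (18.0% and 18.8% of all genes), and 9 were lower on each (50.7% and 48.2%). Of the 42 members, 39 changed in the same direction in KO and WT, or 92.9%, near the 90.8% of all genes. The correlation of the changes across these genes was 0.93 by Pearson and by Spearman, against 0.94 by Pearson for all genes, and genes on shared arrays are not independent. The gap between the genotypes had a median size of 0.14 and was largest for Psmg2, which changed by −1.15 on KO and −2.003 on WT. On the other probe set of Psmg2 the changes were −1.91 and −2.13. Psme3ip1, which is no subunit, changed by −0.79 on KO and −0.27 on WT.

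Genes with several probe sets show how far a value depends on the probes. Of the 81 probe sets 66 passed the filter, and 17 members had at least 2 that did. In 12 of these all probe sets changed in the same direction at 5 h, and in 5 they did not. Psma6 changed by 1.35, 1.59 and 1.78 on its 3 probe sets, Psma5 by 1.201 and 1.05, and Psmg2 by −1.58 and −2.02. Psmc4 was −0.56 on its brighter probe set and 0.38 on the other, and that other value came from 0.37 on KO and 0.38 on WT. Psmd11 spanned −0.03 to 0.66 over 4 probe sets. As deposited, Psmc2 was 0.25 on the probe set used and −0.17 on the other that passed. Likewise Psmb3 was 0.05 and −0.35, and Psme3 0.22 and −0.03. The higher calls of Psmc2, Psmb3 and Psme3 on other scalings rest on the probe set used. Psmf1, the inhibitor PI31, spanned the widest range, from −1.54 to −0.32, and the main fit tested only the brightest of its 3. With the mean of probe sets in the deposited signals, Psmf1 was called lower, at −0.94. For Psmb1 the brightest and 1 dimmer probe set gave −0.73 each, while another gave −0.12.

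**Figure D5:**
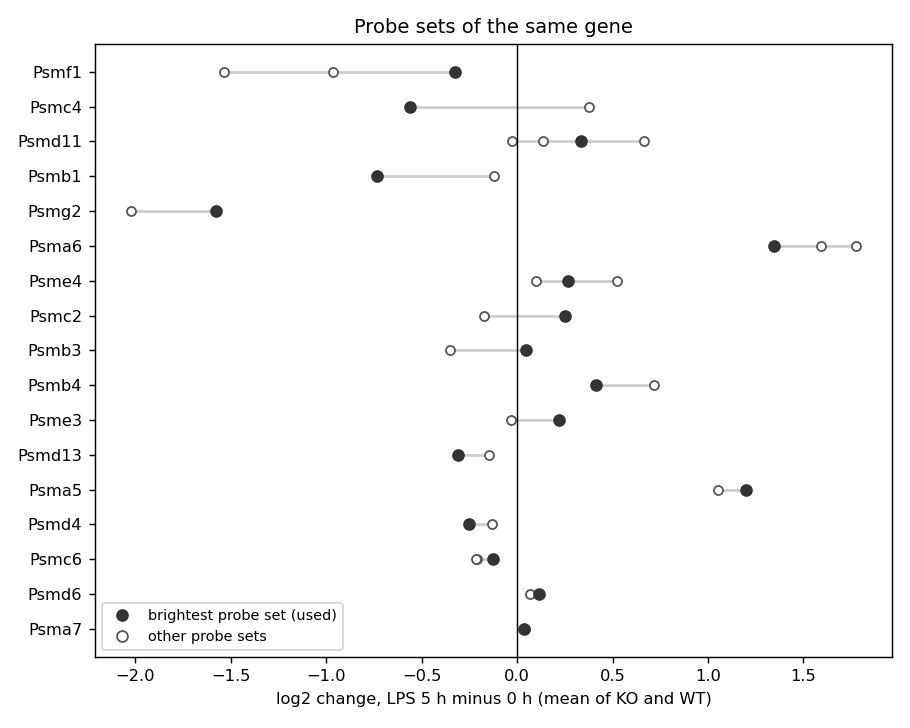
Log2 change at 5 h against 0 h (mean of KO and WT) for each probe set that passed the filter, for the 17 genes with at least 2 of them. Filled points are the brightest probe set, which was used, and open points the others. Psmf1 has the widest range, and Psmc4 has 1 probe set on either side of 0.

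Other factors of the ubiquitin-proteasome system, listed by name, gave 1 higher and 8 lower of 20 tested at 5 h, with a median of −0.31. They gave 11 and 4 with array medians set equal and 3 and 8 after quantile normalization. Of all genes, 19.5% were higher and 54.0% lower as deposited, 38.9% and 27.2% with equal medians, and 26.3% and 40.8% after quantile normalization. Zfand5, a zinc-finger protein that stimulates the proteasome, rose by 1.38 (adjusted p = 0.0017). It was the 1 factor of 20 called higher at 1 h, by 1.55 (adjusted p = 0.010), where 5.42% of all genes were. It read 3054, 10202 and 8848 at 0, 1 and 5 h on the KO arrays and 3095, 7918 and 7223 on the WT arrays. Its 1 h call was lost in 4 of the fits with other processing or without 1 array. With all 6 arrays kept, the adjusted p at 1 h reached 0.064, and without 1 array the change was 1.37 to 1.72. Zfand2a, an arsenite-inducible proteasome-associated protein, fell by 2.02 (adjusted p = 0.0030), and Ubqln2, a shuttle that carries ubiquitinated proteins to the proteasome, by 1.56 (adjusted p = 0.00079). Both were lower on all 3 scalings. Ngly1, the deglycosylase that NFE2L1 needs for its activation, was also lower on all 3, at −1.50 as deposited, whereas Nfe2l1 itself fell by 0.71 as deposited and stood at 0.05 after array medians were set equal. Ngly1 and Nfe2l1 were named after their values were seen. Pomp, the chaperone that matures the core, did not pass as deposited (0.24, adjusted p = 0.103), and neither did the cap subunit Sem1 (0.16), but both were called higher after array medians were set equal (1.0004 and 0.92). As a further scale for the members, 45 ribosomal protein genes gave 0 higher and 30 lower (median −0.46), and 83 respiratory chain genes gave 3 and 59 (−0.60). After array medians were set equal these lists gave 16 and 0 (0.30) and 24 and 12 (0.16). After quantile normalization they gave 2 and 32 (−0.46) and 5 and 67 (−0.59). The shares of all genes on each scaling are those given beside the factors.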

How the data were processed

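The authors deposited MAS5 signals, which are intensity on a linear scale, for 22690 probe sets on each of 6 arrays, 1 per genotype and time, from biotin-labelled cRNA. MAS5 is named in the submitters' processing notes, without a version or scaling target. Trimmed of 2% at either end, every array averaged 500.2 to 500.3, so a common scaling had been applied. Of the probe sets, 20393 have 1 symbol in the platform annotation, 691 have several and were left out, and 1606 have none here.

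Before the log2 step a floor of 18.2, the 25th percentile over all arrays, replaced lower signals. Probe sets had to lie above the median of 1 array or more, and the one with the highest mean signal stood for its gene, which left 7510 genes. Limma 3.58.1 in R 4.3.3 fitted genotype and time as additive terms on all 6 arrays, with 2 residual degrees of freedom and a prior of 2.18, and p-values were adjusted (Benjamini-Hochberg) over all 7510 genes. The number of arrays limits the precision, and the spread used covers these arrays, not that between animals. Genotype differences at a given time, and LPS changes in a given genotype, compare 1 array with 1 and have no test. The fit was tested on simulated data.

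Genes named are Nfkbib, the catalytic Psmb5, Psmb6 and Psmb7, up to 8 rises and 8 falls among members called at each LPS time, the 2 largest genotype differences each way at each time, the extremes of each role, the members whose probe sets differ most, the inducible genes and the extremes of the factor list. Other genes named were chosen after their values were seen. The members and lists were chosen with earlier results of these data known. Alternatives were the scaling, the floor, the filter, the choice of probe set, the model terms and leaving out each array; leaving out probe sets marked as shared between transcripts and leaving out Psmc3ip and Psme3ip1 were added after the data were seen.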

Additional observations from a re-analysis of the deposited data

How the results depend on the processing

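The scaling of the arrays moved the counts most. With array medians set equal, 28 members were higher and 1 lower at 5 h against 0 h, and 27 and 1 at 5 h against 1 h. Of all genes, 38.9% were then higher and 27.2% lower at 5 h against 0 h, and 36.4% and 24.1% against 1 h. On single arrays at 1.5-fold, KO at 5 h then had 24 higher and 1 lower and WT had 22 higher and 2 lower. The share of all genes at 1.5-fold was not counted on that scaling, so these counts have no background beside them. Psma1 turned to 0.37, Psmb1 to 0.029, Psmb7 to 0.20 (0.047 against 1 h), Psmc4 to 0.20, Psmf1 to 0.44, Psmg3 to 0.092 and Psmg4 to 0.062 at 5 h under equal medians. Without probe sets marked as shared between transcripts, Psmd11 turned to −0.029. Setting medians equal adds the same log2 amount to every signal of an array that stays above the floor, so it moves such genes alike. The cause of the other shifts was not tested.

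The members' median at 5 h against 0 h lay 0.61 above that of all genes, and 0.31 above it with no filter, under which dim genes enter, and 0.23 above it after quantile normalization. Against 1 h it lay 0.60 above, with 0.55 for log2(signal + 32), 0.38 with no filter and 0.26 after quantile normalization. At 1 h the difference of 0.035 was 0.00795 with the mean of probe sets, and turned to −0.041 with no filter and −0.053 after quantile normalization. The 1 member lower at 1 h became 0 under equal medians, quantile normalization, no filter and a model without genotype. In the same order, 3.56%, 4.91%, 0.831% and 7.32% of all genes were lower. Leaving out 1 array at a time gave a median difference of 0.00798 to 0.057 and 0 to 1 lower at 1 h, 6 to 9 higher and 6 to 10 lower at 5 h against 0 h, and 6 to 10 higher, 1 to 6 lower and a median difference of 0.50 to 0.64 at 5 h against 1 h. Shares of all genes for some of the fits without 1 array are given with the 5 h results above. The count of members called between the genotypes was 0 under every alternative run.

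On single arrays at 1 h, KO had 1 higher with no filter, and its 2 lower became 1 for log2(signal + 32), 1 after quantile normalization and 0 under equal medians. WT had 1 higher with the mean of probe sets, and its 1 lower became 2 with that mean and 3 with no filter. For KO minus WT, the 0 lower at 0 h became 1 under equal medians, 1 after quantile normalization and 2 with no filter. The 0 higher at 1 h became 1 with no filter, and the 1 higher at 5 h became 0 for log2(signal + 32) and with the mean of probe sets. The share of all genes at 1.5-fold was not counted under these alternatives, so these single-array counts have no background beside them. No paired analysis was possible because the labels carry no replicate numbers that could serve as a block, although the additive fit itself compares times within a genotype and genotypes within a time. In a model of time alone, without the genotype term, the counts at 5 h against 0 h were 12 higher and 15 lower. Of all genes, 19.3% were higher and 53.2% lower in that model.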
